A study of Mus musculus with 5 samples.

Results

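Superoxide dismutases, catalase, glutathione peroxidases and peroxiredoxins are the enzymes that remove superoxide and peroxides. Their transcripts were followed in peritoneal macrophages of mice lacking c-Jun in myeloid cells and of wild-type mice. The set held 10 genes, Sod1, Sod2, Sod3, Cat, Gpx1, Gpx3, Gpx4, Prdx1, Prdx2 and Prdx5, out of 27938 genes tested, 14641 of them with a symbol. The genes were chosen by enzyme class with earlier results of these arrays known, among them the low Sod3 and the high Cat signal in c-Jun-deleted macrophages. Differences of these genes between the genotypes are therefore given as a description, and the p-values of the fit over all genes show only where each gene stood in that fit. The rule took all probes whose transcript accession maps to one of the 10 symbols, which gave 12 probes, 2 for Cat, 2 for Prdx1 and 1 for each of the others. All 10 genes were well above background on each array and passed the filter on dim probes.

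There were 2 c-Jun-deleted arrays, numbered 1 and 9 in their titles, and 3 wild-type arrays, numbered 5, 11 and 14. The c-Jun-deleted mice are labelled cJunfl/fl LysMCre-/+, with floxed Jun alleles and the Cre recombinase placed in the lysozyme gene Lyz2, which drives it in macrophages, neutrophils and other myeloid cells, whereas the source names give Mx as the Cre line. Wild-type controls were littermates, all animals were 8 weeks old on a 129/C57Bl6 background, either sex was used, and the cells were those that stuck to the dish after a night in culture. Nothing in the labels says that RNA of several animals was pooled, and if the samples were not separate animals the p-values measure only their technical spread.

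Superoxide arises in macrophages from the phagocyte oxidase and from mitochondria. A dismutase turns it into hydrogen peroxide, in the cytosol by Sod1, in mitochondria by Sod2 and outside the cell by Sod3. Catalase splits hydrogen peroxide in peroxisomes, glutathione peroxidases reduce peroxides with glutathione, and peroxiredoxins reduce them with thioredoxin. Jun is a subunit of AP-1, a transcription factor that binds the letters TGACTCA. Nrf2, with small Maf partners, binds the antioxidant response element TGACNNNGC.

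Jun, the targeted gene, was at 2.76 and 2.71 in c-Jun-deleted macrophages, against 3.21, 3.75 and 3.17 in wild-type macrophages, on the scale of all levels given here, the log2 signal after division by the 75th percentile of its array. Whether its probe reads the deleted part of the gene is not known, so the level is no check of the genotype. Lyz2 was at 4.46 in c-Jun-deleted 1 and 8.52 in c-Jun-deleted 9, against 8.70, 8.76 and 9.18 in wild-type macrophages. The Y-linked Ddx3y was well above background on wild-type 11 alone, so sex was not balanced. The 75th percentile signal lay between 437 and 596 over the 5 arrays, and 53.0% to 60.6% of the spots were well above background. Precision is limited by there being only 5 arrays.

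The question put to each gene was whether its transcript level differed with the loss of c-Jun. Sod3 and Cat were the only members of the 10 whose 2 groups of arrays did not overlap, Sod3 lower and Cat higher in c-Jun-deleted macrophages. The adherent cells were measured in bulk, where fewer cells of a type and less RNA per cell cannot be told apart. The groups did not overlap for 33.5% of all genes tested, with c-Jun-deleted macrophages below for 20.2% and above for 13.3%, so 2 of 10 is no more than the background. In limma's test with Benjamini-Hochberg adjustment over all genes, 0 of the 10 had an adjusted p below 0.05, as had 0% of all genes. At an unadjusted p below 0.05 there were 2 of the 10, again Sod3 and Cat, against 12.2% of all genes (3395), 6.53% lower and 5.63% higher. Adjusted p ranged from 0.173 (Sod3) to 0.872 (Sod1). Of the 3395 genes past that unadjusted threshold 46.3% were higher, and the share of higher genes among those called was 62.0% with quantile normalization, 61.2% with normexp and 79.0% with median centring. Median centring gave 187 genes an adjusted p below 0.05, none of them a member. Groups that are separate on all 5 arrays, as for Sod3 and Cat, must stay separate when any 1 array is left out. The number of members without overlap became 7 without c-Jun-deleted 1, where 17014 of all 27938 genes had no overlap. It was 4 without c-Jun-deleted 9 (14178 of all genes) and 8 without wild-type 11 (14979). It was 3 without wild-type 14 (12328) and stayed at 2 without wild-type 5 (12289).

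Sod3, the secreted copper and zinc dismutase that binds to the extracellular matrix, was at -3.16 and -3.28 in c-Jun-deleted macrophages, against -1.51, -1.61 and -1.53 in wild-type macrophages. Both c-Jun-deleted arrays lay below every wild-type array, the gap between the groups being 1.56, while the arrays of a group lay within 0.12 of each other in c-Jun-deleted and within 0.09 in wild-type macrophages. The means were -3.22 ± 0.09 (SD, n = 2) in c-Jun-deleted and -1.55 ± 0.05 (SD, n = 3) in wild-type macrophages. The difference was -1.67 (SE 0.14), a 3.19-fold lower signal. It stood at rank 12 by p among all genes, with a limma adjusted p of 0.173. Within slide 1, which carried c-Jun-deleted 1 and wild-type 5, the difference was -1.65, and within slide 2, which carried c-Jun-deleted 9 and wild-type 11 and 14, it was -1.72. The Sod3 spot was dim. Before scaling it gave signals of 66.6 and 44.8 in c-Jun-deleted macrophages, against 166, 149.9 and 167 in wild-type macrophages. With normexp background correction, which adds an offset to every spot, the difference was -1.07, and the groups still did not overlap.

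Sod1, the cytosolic copper and zinc dismutase, was at 6.14 and 6.24 in c-Jun-deleted macrophages, against 6.27, 6.23 and 6.25 in wild-type macrophages. The groups overlapped, and the 5 values were the closest together of the 10 genes. The difference was -0.06 (SE 0.13), and it was 0.12, 0.15 and 0.26 with quantile normalization, median centring and normexp, so its direction depends on the scaling. The median difference of all genes was -0.09, and median centring put it at 0.12. Relative to the median of all genes, the Sod1 difference was 0.03.

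Sod2, the manganese dismutase of mitochondria and a gene known to respond to inflammatory signals, was at 8.12 and 7.43 in c-Jun-deleted macrophages, against 8.40, 8.08 and 8.65 in wild-type macrophages. Only c-Jun-deleted 9 lay below the wild-type values, and c-Jun-deleted 1 lay among them. The difference was -0.60 (SE 0.29). Leaving out c-Jun-deleted 9 gave -0.26, and leaving out c-Jun-deleted 1 gave -0.95.

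Cat, which encodes catalase, was at 0.96 and 1.55 in c-Jun-deleted macrophages, against 0.14, 0.58 and -0.10 in wild-type macrophages. Both c-Jun-deleted arrays lay above every wild-type array, by 0.37 at the nearest. The means were 1.25 ± 0.42 (SD, n = 2) in c-Jun-deleted and 0.21 ± 0.35 (SD, n = 3) in wild-type macrophages. The difference was 1.04 (SE 0.30), a 2.06-fold higher signal, with a limma adjusted p of 0.313. It was 0.81 within slide 1 and 1.31 within slide 2. A second probe of the same transcript, not used in the fit because it was dimmer, was at 0.20 and 0.18 in c-Jun-deleted macrophages, against -0.46, -0.59 and -0.23 in wild-type macrophages. Its groups did not overlap either, and its difference was 0.61. The promoter of Cat is shown because Cat was the one member higher in both c-Jun-deleted arrays. It runs from 250 bases before to 50 bases after the start on the minus strand, chr2:103485104-103485403 in GRCm38.p6, per RefSeq.
Cat: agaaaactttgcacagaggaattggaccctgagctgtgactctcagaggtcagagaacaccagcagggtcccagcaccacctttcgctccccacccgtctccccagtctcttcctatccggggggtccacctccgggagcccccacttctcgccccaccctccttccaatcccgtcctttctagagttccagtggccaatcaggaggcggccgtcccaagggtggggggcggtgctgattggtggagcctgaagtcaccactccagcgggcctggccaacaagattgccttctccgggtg
It has no capitals, since none of the letters searched for (TGACTCA, its variant TGACGTCA and TGACNNNGC, on both strands) occurs in this window.

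The authors' deposited table holds 1 mean per group for 1709 probes, where the arrays carry 55681. Each has a difference of at least 1.00 in either direction, and 2 of the 12 probes of these genes are in it. In the values computed here, 11.3% of all genes tested (3162 genes) differed by at least 2-fold, as did 2 members, Sod3 and Cat. In the authors' deposited table the Sod3 difference was -1.67 and that of the brighter Cat probe 1.04.

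**Figure D1:**
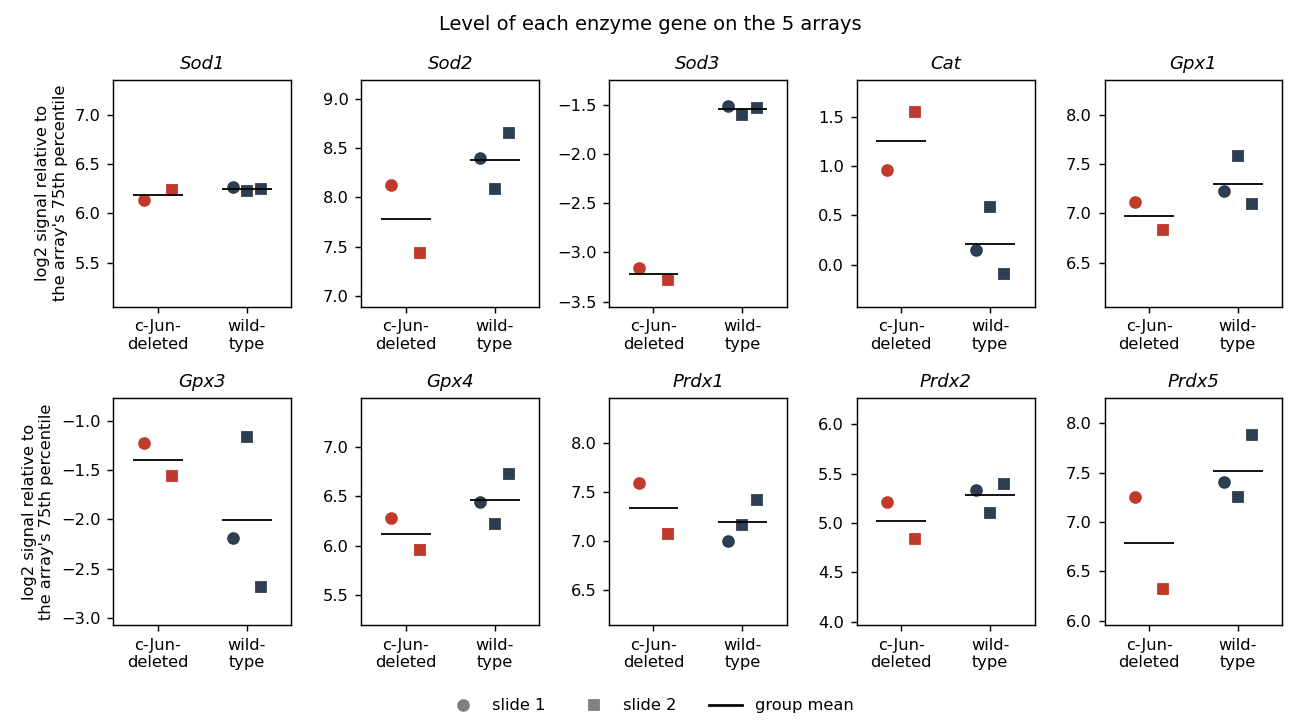
Level of each of the 10 genes as log2 of the signal relative to the array's 75th percentile, with c-Jun-deleted arrays on the left and wild-type arrays on the right of each panel. Each point is 1 array (circle, slide 1; square, slide 2), lines are group means, and every panel spans the same height on the log2 scale; Sod3 and Cat are the panels in which the groups do not overlap.

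Gpx1, the cytosolic and mitochondrial glutathione peroxidase, was at 7.12 and 6.83 in c-Jun-deleted macrophages, against 7.22, 7.58 and 7.10 in wild-type macrophages. C-Jun-deleted 1 lay within the wild-type range and c-Jun-deleted 9 below it. The difference was -0.32 (SE 0.21), and -0.18 without wild-type 11. Gpx4, which reduces lipid peroxides in membranes, was at 6.28 and 5.96 in c-Jun-deleted macrophages, against 6.45, 6.21 and 6.73 in wild-type macrophages. The groups overlapped through c-Jun-deleted 1 and wild-type 11, and the difference was -0.34 (SE 0.22).

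Gpx3, the glutathione peroxidase secreted into plasma, was at -1.22 and -1.56 in c-Jun-deleted macrophages, against -2.19, -1.16 and -2.68 in wild-type macrophages. Wild-type 11 was the highest of the 5 arrays, and the other wild-type arrays were the lowest. The wild-type range, 1.52, was the widest of the 10 genes, and the difference was 0.62 (SE 0.48). It was 1.04 without wild-type 11 and 0.28 without wild-type 14. Wild-type 11 also had the highest summed signal of mesothelial and stromal markers, 11.7 times the 75th percentile signal, against 3.35 and 4.66 in c-Jun-deleted macrophages and 4.76 and 8.52 in wild-type 5 and 14; the part of these cells in the Gpx3 signal was not tested.

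Prdx1, a cytosolic peroxiredoxin and a known target of Nrf2, was at 7.59 and 7.07 in c-Jun-deleted macrophages, against 7.01, 7.17 and 7.42 in wild-type macrophages. C-Jun-deleted 1 was the highest array and c-Jun-deleted 9 the second lowest. The difference was 0.13 (SE 0.23), 0.59 within slide 1 and -0.22 within slide 2. A dimmer second probe was at 3.84 and 2.99 in c-Jun-deleted macrophages, against 3.04, 3.36 and 3.57 in wild-type macrophages, a difference of 0.09. The groups overlapped on both probes.

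RefSeq promoter windows of GRCm38.p6 were at hand for 9 of the 10 genes. The gene without a window was Sod3, so its promoter was not searched. Prdx1 was the only one of the 9 with the AP-1 letters TGACTCA, and it is shown for that reason beside Sod1, the other member with a match. The Prdx1 window lies on the plus strand at chr4:116685349-116685648 and that of Sod1 on the plus strand at chr16:90220512-90220811, and capitals mark the matches.
Prdx1: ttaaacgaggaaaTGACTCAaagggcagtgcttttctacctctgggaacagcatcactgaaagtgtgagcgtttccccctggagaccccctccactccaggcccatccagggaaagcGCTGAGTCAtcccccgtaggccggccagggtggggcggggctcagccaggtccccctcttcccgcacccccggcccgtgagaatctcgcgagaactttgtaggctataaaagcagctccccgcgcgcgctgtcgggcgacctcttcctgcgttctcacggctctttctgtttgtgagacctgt
Sod1: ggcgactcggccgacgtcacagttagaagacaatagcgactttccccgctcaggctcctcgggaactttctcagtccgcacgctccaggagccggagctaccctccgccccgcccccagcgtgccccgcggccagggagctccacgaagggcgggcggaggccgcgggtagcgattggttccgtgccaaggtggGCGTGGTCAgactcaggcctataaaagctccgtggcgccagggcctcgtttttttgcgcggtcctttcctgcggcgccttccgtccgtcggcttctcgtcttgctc
Prdx1 holds TGACTCA from base -237, counted from the start, and again on the other strand from base -131, where it overlaps a TGACNNNGC from base -133. Sod1 holds TGACNNNGC on the other strand from base -56. Of 32851 mouse promoter windows of this length, 5.20% held TGACTCA, 1.79% TGACGTCA and 12.4% TGACNNNGC on either strand. A match is a stretch of letters and was not measured as a bound site, and neither gene had groups of arrays that stood apart.

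Prdx2, a cytosolic peroxiredoxin abundant in red blood cells, was at 5.21 and 4.83 in c-Jun-deleted macrophages, against 5.34, 5.11 and 5.40 in wild-type macrophages. The groups overlapped, and the difference was -0.26 (SE 0.19). Prdx5, a peroxiredoxin of mitochondria, peroxisomes and cytosol, was at 7.26 and 6.32 in c-Jun-deleted macrophages, against 7.40, 7.25 and 7.89 in wild-type macrophages. C-Jun-deleted 9 lay well under every wild-type array, while c-Jun-deleted 1 lay just above wild-type 11. The difference was -0.72 (SE 0.36), -0.14 within slide 1 and -1.25 within slide 2, and -0.26 without c-Jun-deleted 9.

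**Figure D2:**
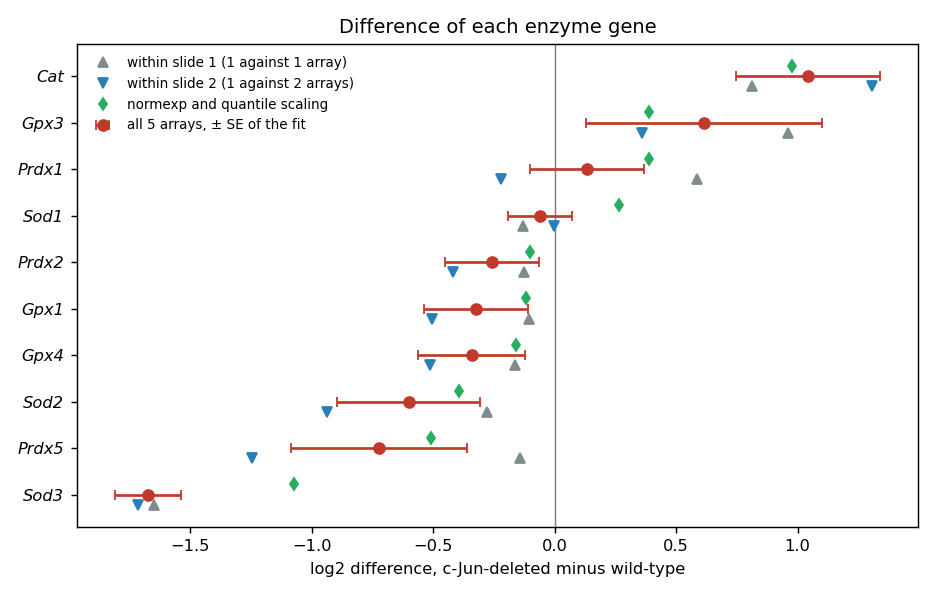
Log2 difference, c-Jun-deleted minus wild-type, for each gene: red points with bars are the fit over all 5 arrays ± SE, triangles the differences within each slide, and diamonds those after normexp and quantile scaling. Sod3 lies between -1.65 and -1.72 within the slides and at -1.07 after normexp, whereas Prdx5 lies at -0.14 and -1.25 within the slides.

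Over the 10 genes, 7 were lower and 3 higher in c-Jun-deleted macrophages, with a median difference of -0.29, beside a median of -0.09 and 61.4% lower over all genes tested. The median was -0.15, -0.080 and -0.11 with quantile normalization, median centring and normexp, with 6 of 10 lower under each because Sod1 turned. With the wild-type mean of each gene set to 0, the median of the 10 genes was -0.14 for c-Jun-deleted 1 and -0.46 for c-Jun-deleted 9, against -0.04, -0.04 and 0.07 for wild-type 5, 11 and 14. C-Jun-deleted 9 thus stood lower than c-Jun-deleted 1 over the set. The median of each related list described below was also lower on c-Jun-deleted 9, for example -0.28 against 0.02 for the thioredoxin system. Among the members, c-Jun-deleted 9 was below c-Jun-deleted 1 for Sod2, Gpx1, Gpx3, Gpx4, Prdx1, Prdx2, Prdx5 and Sod3, and above it for Sod1 and Cat. Sod2, Gpx4, Prdx2 and Prdx5 had the same order of arrays, with wild-type 14 highest and c-Jun-deleted 9 lowest. The spots of Sod1, Sod2, Gpx1, Gpx4, Prdx5 and the bright Prdx1 probe on all 5 arrays, and of Prdx2 on 2, were read from the weaker scan and scaled up by the authors' software, which concerned 32 of 60 spots; none was saturated.

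The genes whose centred values over the 5 arrays were most like those of Sod3 were Ptprf (a receptor tyrosine phosphatase, root mean square difference 0.16 in log2), 1700029H14Rik (0.17), Alms1 (a centrosome and cilium protein, 0.19), Ifitm1 (an interferon-induced membrane protein, 0.19) and Matn2 (matrilin 2, a matrix protein, 0.19). Ifitm1, for example, was at 0.29 and 0.50 in c-Jun-deleted macrophages, against 2.21, 1.69 and 1.88 in wild-type macrophages. On c-Jun-deleted 9, 1700029H14Rik, Alms1 and Matn2 were at -5.68, -4.88 and -5.13. These levels lie under -4.59, the lowest level well above background on that array, which limits their likeness to Sod3. Ptprf (-3.86) and Ifitm1 lay above it. Among the other members Prdx5 came nearest to Sod3 with 0.57, and Cat was farthest with 1.37. Likeness over 5 arrays is a description and carries no test.

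The other genes of these pathways were followed in 6 lists, of which 0 genes passed limma's adjusted threshold, and the lowest adjusted p in any list was 0.212. Of 7 tested further superoxide and peroxide enzymes 4 were higher and 3 lower (median 0.10). Groups did not overlap for 1 of the 7, with c-Jun-deleted macrophages below, beside 20.2% of all genes. This was Gpx8, a peroxidase of the endoplasmic reticulum, at -5.43 and -5.51 in c-Jun-deleted macrophages, against -4.80, -3.82 and -2.44 in wild-type macrophages, well above background on only 1 of 2 and 2 of 3 arrays. Gpx2, the epithelial glutathione peroxidase, differed by 0.28 (SE 0.21). Prdx3, Prdx4 and Prdx6, chosen after their values were seen, had differences of 0.10, -0.20 and 0.20, each with overlapping groups.

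Of the 16 genes of the thioredoxin system and peroxiredoxin repair, 13 were lower and 3 higher (median -0.12), with 2 of 16 below and 2 above without overlap, beside 20.2% and 13.3% of all genes. Sesn3, a sestrin, was at 0.60 and 0.89 in c-Jun-deleted macrophages, against -0.07, -0.10 and -0.49 in wild-type macrophages (difference 0.96, SE 0.21). Nxn, nucleoredoxin, was at 3.05 and 2.68 in c-Jun-deleted macrophages, against 3.17, 3.51 and 3.53 in wild-type macrophages (-0.54, SE 0.21). Unadjusted limma p was below 0.05 for both and for no other of the 16 genes, beside 12.2% of all genes.

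Of 17 tested genes of glutathione synthesis and recycling, 11 were lower and 6 higher (median -0.13). Mgst2, a microsomal glutathione transferase, was at 2.79 and 3.14 in c-Jun-deleted macrophages, against 1.06, 1.31 and 0.89 in wild-type macrophages (1.88, SE 0.21, adjusted p = 0.212). The groups lay far apart for Mgst2, and its relative Mgst3 was slightly lower in c-Jun-deleted macrophages, at 0.60 and 0.46 in c-Jun-deleted macrophages, against 0.92, 0.90 and 1.04 in wild-type macrophages (-0.42, SE 0.14).

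Of 13 tested producers of superoxide and peroxide, 11 were lower and 2 higher (median -0.20), with 5 below and 2 above without overlap, where all genes had 61.4% lower, 20.2% below and 13.3% above. Xdh, xanthine dehydrogenase, was at 3.57 and 3.35 in c-Jun-deleted macrophages, against 4.21, 4.14 and 4.10 in wild-type macrophages (-0.69, SE 0.15). Mpo, the myeloperoxidase of neutrophil granules, was at -4.72 and -2.39 in c-Jun-deleted macrophages, against 0.26, -1.97 and -1.31 in wild-type macrophages (-2.55, SE 0.97), and its values were spread over more than 2 log2 units in each group. Of 15 tested genes of copper, zinc, manganese and selenium supply, 11 were lower and 4 higher (median -0.27). The 2 with the lowest p were Selenop, which encodes the selenium carrier selenoprotein P (-0.53, SE 0.21), and Secisbp2, which is needed to read selenocysteine codons (0.38, SE 0.15).

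Of 13 genes of Nrf2 and other regulators 9 were lower and 4 higher (median -0.12), and 4, Jun itself among them, lay below and 1 above without overlap, beside 20.2% and 13.3% of all genes. Foxo1 was at 2.86 and 3.20 in c-Jun-deleted macrophages, against 2.25, 1.88 and 2.08 in wild-type macrophages (0.96, SE 0.20). Foxo3, a related transcription factor known to act on Sod2 and Cat, was at -3.35 and -3.27 in c-Jun-deleted macrophages, against -2.45, -2.88 and -2.41 in wild-type macrophages (-0.73, SE 0.20). Nfe2l2, which encodes Nrf2 itself, differed by -0.40 (SE 0.25) with overlapping groups.

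**Figure D3:**
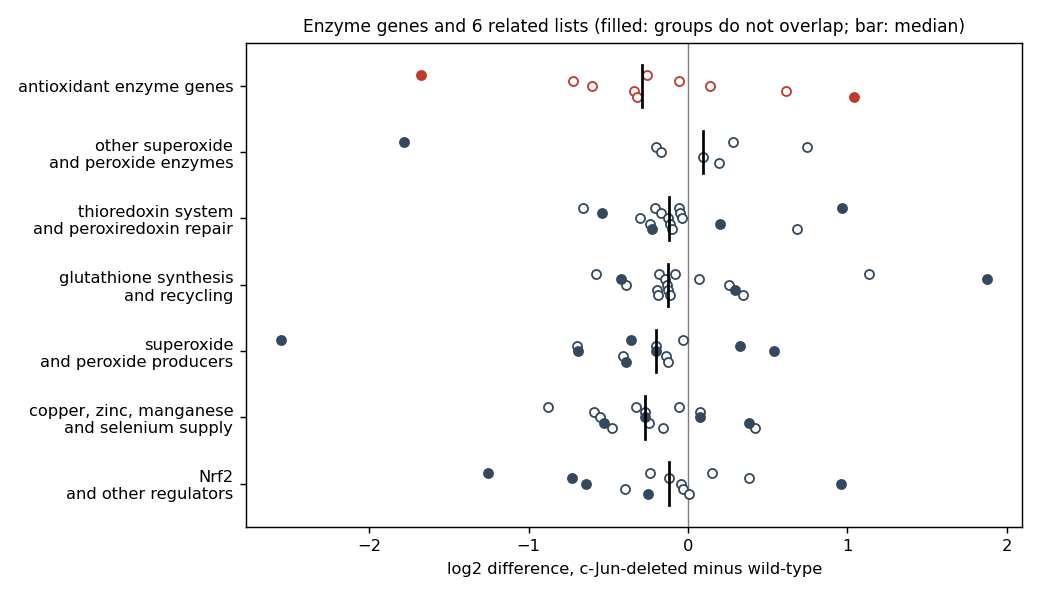
Log2 difference, c-Jun-deleted minus wild-type, of the 10 enzyme genes (red) and of the genes of the 6 related lists (grey), 1 point per gene; filled points are genes whose groups of arrays do not overlap and bars are medians. The medians lie between -0.29 and 0.10, close to the median of all genes of -0.09, and single genes such as Sod3, Mpo and Mgst2 lie far from them.

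All 10 macrophage markers were well above background on each of the 5 arrays. Their summed signal was 673 and 607 times the 75th percentile signal in c-Jun-deleted macrophages, against 737, 499 and 714 in wild-type macrophages. Single markers went both ways, with 3 above (Icam2, Itgam, Cd68) and 3 below (Mertk, Csf1r, Fcgr1) without overlap. Among all genes 13.3% lay above and 20.2% below. Gata6 and Timd4 were lowest on wild-type 11, at -1.07 and 1.47. B cell markers were higher for 8 of 8 genes, with sums of 229.5 and 335 in c-Jun-deleted macrophages, against 70.1, 55.4 and 33.4 in wild-type macrophages. The erythroid list had sums of 10.8 and 23.0 in c-Jun-deleted macrophages, against 1.52, 1.09 and 0.668 in wild-type macrophages. Its 5 higher genes of 7 tested were all globins. Of the globins, Hbb-b1 and Hbb-b2 were not distinguished from background by the scanner flag on any of the 3 wild-type arrays. Both sums were higher in c-Jun-deleted macrophages, as was Cat, which red cells and many other cells express. Both sums and the brighter Cat probe were higher on c-Jun-deleted 9 than on c-Jun-deleted 1. The dimmer Cat probe was not, at 0.18 on the former array and 0.20 on the latter. Among wild-type arrays both sums were highest on wild-type 5 and lowest on wild-type 14. There the brighter Cat probe was highest on wild-type 11 and the dimmer one, at -0.23, on wild-type 14. How far B cells and red cells contribute to the Cat difference was not tested.

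Mesothelial and stromal markers were lower for 10 of 10 tested genes (median -0.98), with sums of 3.35 and 4.66 in c-Jun-deleted macrophages, against 4.76, 11.7 and 8.52 in wild-type macrophages. The median of this list, with wild-type means set to 0, was -1.30 for c-Jun-deleted 1 and -0.70 for c-Jun-deleted 9, against -0.69, 0.81 and -0.25 for wild-type 5, 11 and 14. On that scale Sod3 was at -1.61 for c-Jun-deleted 1 and -1.73 for c-Jun-deleted 9, against 0.04, -0.06 and 0.02 for wild-type 5, 11 and 14. The part of these cells in the Sod3 difference was not tested. T and NK cell, mast cell, endothelial, neutrophil and eosinophil, and dendritic and monocyte-derived cell markers had overlapping sums of the groups apart from T and NK cells, where the sums were 48.3 and 65.6 in c-Jun-deleted macrophages, against 18.0, 35.9 and 13.1 in wild-type macrophages. Of the 7 T and NK cell genes, Cd2 alone had groups that did not overlap, and the groups overlapped for the other 6. The part of these cell types in the Sod3 and Cat differences was not tested.

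**Figure D4:**
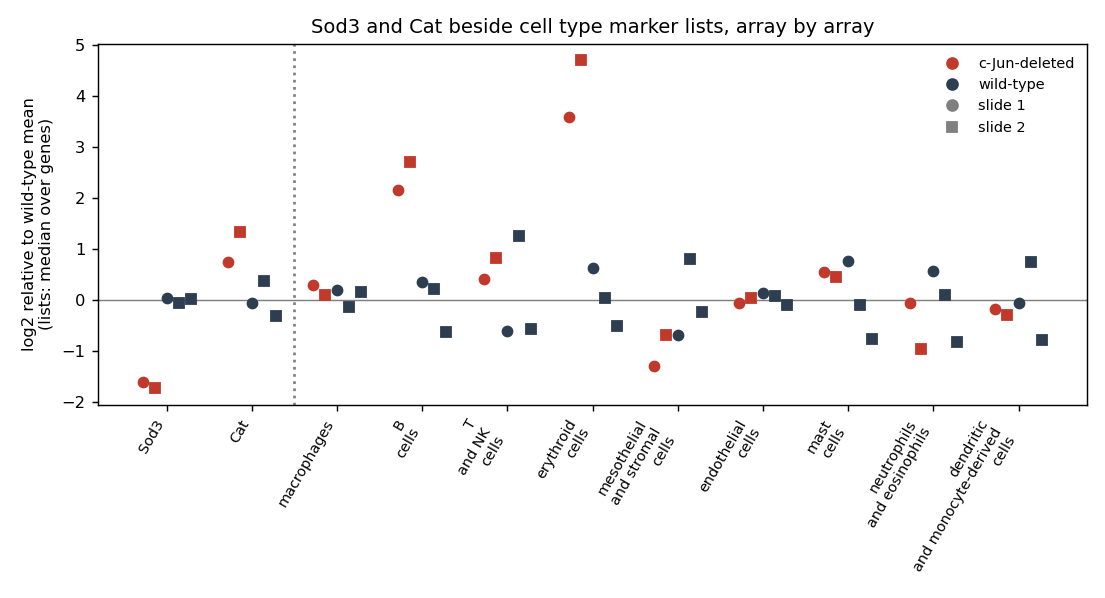
Sod3 and Cat (left of the dotted line) and the median of each cell type marker list (right), array by array, as log2 relative to the wild-type mean; red is c-Jun-deleted, dark blue wild-type, circles slide 1 and squares slide 2. B cell and erythroid medians lie at 2.16 and 2.70 and at 3.58 and 4.70 on c-Jun-deleted 1 and 9, and Sod3 lies at -1.61 and -1.73.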

How the data were processed

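Transcript levels were measured on 1-colour Agilent arrays, 2 of c-Jun-deleted and 3 of wild-type macrophages. The authors' deposited scanner files give each spot's background-subtracted intensity from Feature Extraction 11.5.1.1, with no scaling between arrays, and flags of an other kind used for filtering, per the file headers. The deposited group table holds log2 means, and its name speaks of 75th percentile normalization; its columns have medians of 1.19 (c-Jun-deleted) and 0.54 (wild-type), the baseline is unknown, and for 1692 of 1709 probes its difference lay within 0.001 of the one computed here. Its header names a further wild-type array, not used here.

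Log2 of the processed signal minus log2 of the array's 75th percentile was used, without outlier-flagged spots. Probes well above background on at least 2 arrays were kept. They were named by unversioned transcript accession through a RefSeq table of GRCm38.p6 (28026 of 55681 probes), with the brightest probe per gene. The arrays were designed on mm9, so RefSeq coordinates are given for promoter windows only. The 2 genotypes were set against each other by lmFit and eBayes of limma 3.58.1 (R 4.3.3), 2-sided and with no covariates; p-values were adjusted by Benjamini-Hochberg over 27938 genes. The fit was tested on simulated data. Alternatives were other scalings, normexp (offset 50, on the median spot signal, the files used here having no mean signal), filters, the slide as a block, array weights and leaving out each array. Members and lists were chosen with earlier results of these data known. All 10 members are named, and of each related list the 2 genes with the lowest p; cell type lists were described by sums and medians.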

Additional observations from a re-analysis of the deposited data

How the results depend on the processing

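Sod3 stayed lower and Cat higher in c-Jun-deleted macrophages under every alternative run, with limma adjusted p from 0.0699 to 0.703 and from 0.111 to 0.885 over them. Over the 10 genes, 157 alternative values kept their direction and 5 reversed. Some of the 157 only repeat the main value and could not reverse. Keeping dim probes or outlier spots changed no member, and averaging probes changed only Cat and Prdx1. The authors' deposited table gave nearly the main values for Sod3 and Cat. Sod1 turned to 0.12 with quantile normalization, 0.15 with median centring and 0.26 with normexp. Prdx1 turned to -0.22 within slide 2, and leaving out 1 array at a time put it between -0.13, when c-Jun-deleted 1 was left out, and 0.40, when it was c-Jun-deleted 9. The median of the 10 genes, -0.29, was -0.080 with median centring, -0.11 with normexp and -0.46 within slide 2, and from -0.46 to -0.14 with 1 array left out; relative to the median of all genes it was -0.20, and -0.20, -0.10 and -0.39 under those 3 settings. Genes past an adjusted p of 0.05 numbered 0, and 187 with median centring and 1 with array weights. Genes past an unadjusted p of 0.05 numbered 1836 within slide 2 and 1688 to 4505 with 1 array left out (1688 without c-Jun-deleted 9). Genes without overlap numbered 19667 within slide 2 and 12289 to 17014 with 1 array left out. Fewer arrays by themselves make overlap rarer; the cause of the other changes was not tested. The source names carry a mouse number of their own, separate from the number in the titles. Used as a replicate block, it pairs c-Jun-deleted 1 with wild-type 5 and c-Jun-deleted 9 with wild-type 11. With this block 0 genes passed the adjusted and 3395 the unadjusted threshold, and the median of the 10 genes was -0.20. Wild-type 14 shares its number with no other array, and that median was the same with wild-type 14 left out. Same-numbered arrays had correlations of deviations of -0.07 and 0.19 over 27938 genes, and they also lay on the same slide. The deviations of the 2 c-Jun-deleted arrays mirror each other, so their correlations differ only in sign. The highest, 0.26, was for c-Jun-deleted 1 and wild-type 14, whose numbers differ. The labels do not say that the number marks a shared animal, litter or day. Within slide 1, with 1 array a group, no test was made. The dim Sod3 spot limits its size, -1.07 with normexp.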
